A study of Mus musculus with 12 samples.

Results

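The comparison set RNA of mitotic S38D cells against RNA of mitotic S38A cells, as read counts from 3′ mRNA sequencing. It holds 4 of the 12 libraries of the series, chosen by their labels alone: 2 of S38D and 2 of S38A cells. S38D carries aspartate and S38A alanine at residue 38 of RPL12, so a residue with a negative charge like that of phosphate was compared with a residue that cannot be phosphorylated. Both lines derive from 19DN, a subline of the mouse lymphoma 19PP, a B cell line, that lacks the GFP and hCD2 reporters. That lymphoma arose, per the labels, in a Rag2-/-γC-/- host given bone marrow cells with Cγ1-Cre and Myc/P110*flSTOP, in which the Cre is driven from an immunoglobulin constant region gene of activated B cells. All 4 cultures spent 8 h in 100 ng/mL nocodazole, which depolymerises microtubules and arrests cells in mitosis, and were then washed, given 10 min in fresh medium and collected in cycloheximide, an inhibitor of translation elongation, at 100 µg/mL. WT cells treated in the same way (2 libraries) and asynchronous cells of the 2 mutant lines (2 libraries each) are used below as references. The asynchronous cells had no nocodazole and no release, and were given cycloheximide at the same 100 µg/mL. How the mutations were made, and whether each line is a single clone or each library a separate culture, is not given in the sources used here, so each p-value reflects the spread of these samples alone and that spread may be technical.

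RPL12, also called uL11, is a protein of the large ribosomal subunit at the base of the P-stalk, the protrusion that recruits and activates the GTPases of translation. During mitosis, kinases such as CDK1 phosphorylate many proteins, transcription is mostly silent and bulk protein synthesis is lowered. Total mRNA of arrested cells therefore carries both transcripts inherited from interphase and those made or spared during the arrest. The series addresses what the phosphorylated residue of RPL12 does in mitosis. The mRNA levels described here form its RNA background, and no ribosome footprints were used.

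Gene reads in the 4 libraries numbered 5603135 and 5594973 for S38A and 4835504 and 5501227 for S38D, within the 3432875 to 6587997 reads of all 12 libraries. Spike-in RNA came to 3.25% and 3.24% of gene reads in S38A and to 3.2% and 3.6% in S38D. Replicates differed beyond counting error for 27.1% of genes with at least 10 CPM (read counts scaled to the library size with TMM factors) in mitotic S38A and for 20.5% in mitotic S38D. Along the main axis of differences between replicates, which held 69.7% of their variance, S38D asynchronous replicate 1 (32.8) and WT mitotic replicate 1 (23.8) stood apart. The other 10 libraries lay between -17.3 and 10.2, and the 4 libraries compared here at 6.8 and -7.1 (S38A) and -7.4 and -7.3 (S38D). The B cell markers Ms4a1, Cd79b, Cd22, Ebf1 and Pax5 were present in all 4 libraries, with Ms4a1 at 802 and 722 CPM in S38A and 686 and 670.4 CPM in S38D. Of 20 T and NK cell markers 13 had no read in the 4 libraries, as had 8 of 18 myeloid markers. All T and NK markers together had 42 and 45 reads in S38A and 21 and 24 in S38D. The myeloid markers had 72 and 70 and 94 and 117 reads. Only 1 T and NK marker and 4 myeloid markers had enough reads to be tested. Their summed levels were 2.27 to 5.97 CPM and 11.5 to 19.6 CPM.

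Rpl12 itself (chromosome 2, 32961559 to 32965345, GRCm38) was read at 51.3 and 43.3 CPM in S38A and at 47.99 and 62.2 CPM in S38D. The groups overlapped, and the test did not separate them (log2 fold change 0.22, SE 0.16, adjusted p = 0.382, edgeR quasi-likelihood test with Benjamini-Hochberg adjustment over 10477 genes). WT mitotic cells had 73.5 and 74.4 CPM, and S38A was lower than WT by -0.64 (log2 fold change of S38A against WT, adjusted p = 0.0102). Asynchronous cells had 41.3 and 44.7 CPM in S38A and 35.8 and 28.3 CPM in S38D. Reads at the 3′ end of the transcript do not cover codon 38, so these values check the level of the gene and not the mutation. Processed copies of Rpl12 and the neighbour Lrsam1 on the other strand can share its reads, which makes the level uncertain.

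Mitotic S38D and S38A cells differed at many genes outside chromosome 12. Of 10094 genes tested there, 777 were higher in S38D (7.70%) and 919 lower (9.10%) at an adjusted p under 0.05, and 235 of the higher and 200 of the lower ones differed at least 2-fold. The median log2 fold change over all of these genes was -0.003, and its median SE was 0.211. Among the called genes the median size was 0.7 on the log2 scale, so most differences were below 2-fold. Both S38D libraries lay above both S38A libraries at 31.3% of the genes and below both at 31.8%. In bulk RNA, fewer cells with a transcript and less of it per cell cannot be told apart, and this holds for every value below.

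**Figure D1:**
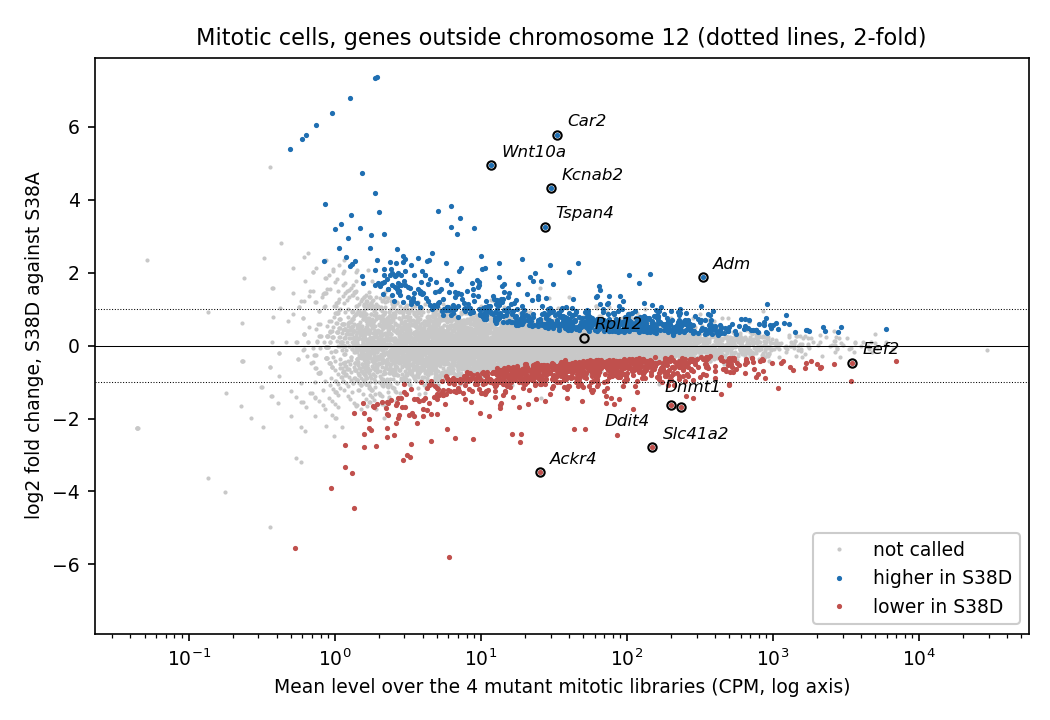
Log2 fold change of S38D against S38A in mitotic cells (vertical axis) against the mean level over the 4 libraries in CPM (log axis) for the 10094 genes tested outside chromosome 12. The 777 called genes that were higher in S38D are blue and the 919 that were lower are red, the dotted lines mark 2-fold, and the labelled Car2 and Ackr4 lie at fewer than 100 CPM.

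The number of called genes rests on how the spread was estimated and on each of the 4 libraries. DESeq2 called 972, spike-in scaling left 387 higher and 694 lower, and a fit of the 4 libraries alone called 2915. Leaving out 1 library gave 733 (S38A replicate 1), 725 (S38A replicate 2), 864 (S38D replicate 1) or 632 (S38D replicate 2). Leaving out the 2 libraries of other groups that stood apart gave 2986. The genes described next kept an adjusted p under 0.05 in the same direction in each alternative analysis that gave them a value (21 or 22), except where a lost call is named.

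Of genes that averaged 10 CPM or more, those most raised in S38D were nearly silent in S38A. Car2 (chromosome 3, 14886273 to 14900770), carbonic anhydrase 2, had 0.904 and 1.42 CPM in S38A and 65.9 and 64.9 CPM in S38D (log2 fold change 5.79, SE 0.52, adjusted p = 0.000181). Wnt10a (chromosome 1, 74791516 to 74804179), a secreted Wnt ligand, had 0.723 and 0.709 CPM in S38A and 23.7 and 21.9 CPM in S38D (log2 fold change 4.95, SE 0.28, adjusted p = 1.69e-08). Kcnab2, an auxiliary subunit of voltage-gated potassium channels, rose from 3.62 and 2.13 CPM to 52.3 and 62.9 CPM (log2 fold change 4.32, SE 0.24, adjusted p = 1.69e-08). The 3 genes were low only on the S38A side: the WT mitotic libraries had 35.3 and 46.96 CPM of Car2, 21.9 and 22.4 of Wnt10a and 72.2 and 61.9 of Kcnab2. S38D did not pass the test against WT for them (adjusted p = 0.356, 0.924 and 0.557), whereas S38A did (adjusted p = 0.000337, 2.75e-08 and 1.31e-08).

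A second set of raised genes had S38D above both other lines. Tspan4, a tetraspanin of the cell surface, had 6.15 and 4.26 CPM in S38A, 50.7 and 49.5 CPM in S38D and 22.9 and 23.3 CPM in WT, so that the 3 lines did not overlap (S38D against S38A: log2 fold change 3.26, SE 0.21, adjusted p = 7.14e-08). Chid1 on the other strand shares bases with Tspan4 and did not pass the test (log2 fold change 0.12, SE 0.21, adjusted p = 0.748). H1f0, the linker histone H1.0 of cells that leave the cycle, had 13.4 and 18.4 CPM in S38A, 74.6 and 79.7 CPM in S38D and 6.23 and 11.9 CPM in WT (log2 fold change 2.28, SE 0.27, adjusted p = 0.000111). For Igfbp2, a carrier of insulin-like growth factors, the levels were 4.52 and 3.37 CPM in S38A and 19.2 and 15.6 CPM in S38D (log2 fold change 2.13, SE 0.30, adjusted p = 0.000174), with 10.2 and 8.34 CPM in WT. Spry2, a feedback inhibitor of ERK signalling, had 7.96 and 10.8 CPM in S38A, 40.8 and 33.7 CPM in S38D and 17.95 and 23.9 CPM in WT (log2 fold change 1.98, SE 0.26, adjusted p = 0.000132). Of these 4 genes, S38D passed the test against WT for Tspan4 (adjusted p = 0.00131) and H1f0 (adjusted p = 2.91e-05) and not for Igfbp2 (adjusted p = 0.0734) or Spry2 (adjusted p = 0.07).

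Ly6a, the surface protein Sca-1, was lower than in WT in both mutants (S38A -3.75, adjusted p = 4.02e-09; S38D -1.54, adjusted p = 1.43e-05, log2 fold changes) and lowest in S38A. It had 149 and 136 CPM in WT, 47.2 and 51.1 CPM in S38D and 11.4 and 9.75 CPM in S38A (log2 fold change 2.22, SE 0.18, adjusted p = 7.1e-07). Adm, which encodes the peptide hormone adrenomedullin and is induced in hypoxia, had 142 and 142 CPM in S38A and 548 and 489.6 CPM in S38D (log2 fold change 1.87, SE 0.12, adjusted p = 8.77e-08), beside 601 and 574 CPM in WT. Emp3, a small membrane protein, had 45.7 and 39.00 CPM in S38A and 159 and 168 CPM in S38D (log2 fold change 1.95, SE 0.15, adjusted p = 4.97e-07), beside 148 and 123 CPM in WT. Epop, a partner of Polycomb repressive complex 2 and elongin, was at 5.97 and 6.38 CPM in S38A and 31.1 and 33.2 CPM in S38D (log2 fold change 2.38, SE 0.22, adjusted p = 3.65e-06), and Dqx1, a putative RNA helicase, at 12.7 and 19.3 and 61.4 and 68.1 CPM (log2 fold change 2.02, SE 0.31, adjusted p = 0.00213). Of Adm, Emp3 and Epop, none passed the test of S38D against WT (adjusted p = 0.458, 0.315 and 0.262).

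**Figure D2:**
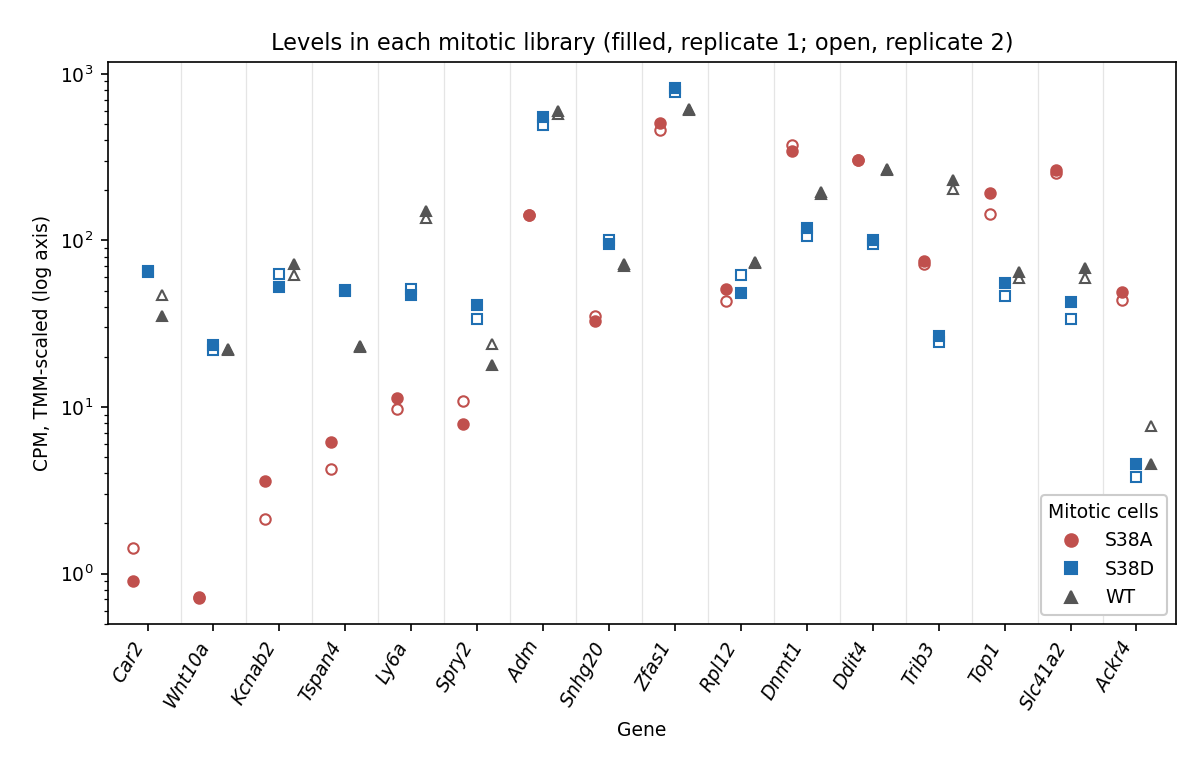
Level of 16 genes in each mitotic library (CPM on a log axis; circles S38A, squares S38D, triangles WT; filled symbols replicate 1, open symbols replicate 2). For Car2, Wnt10a and Kcnab2 the S38A libraries lie far below the other 4, for Ackr4, Slc41a2 and Top1 they lie above them, and for Ddit4 and Trib3 the S38D libraries are the lowest.

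At the same level, the genes most lowered in S38D included several that were raised in S38A against WT. Ackr4 (chromosome 9, 104084157 to 104126933), an atypical receptor that scavenges the chemokines CCL19 and CCL21, had 49.2 and 43.6 CPM in S38A, 4.53 and 3.81 CPM in S38D and 4.53 and 7.68 CPM in WT (log2 fold change -3.47, SE 0.22, adjusted p = 5.5e-08). Slc41a2 (chromosome 10, 83230848 to 83337882), a magnesium transporter, had 266 and 255 CPM in S38A and 42.4 and 33.5 CPM in S38D, beside 68.2 and 59.5 CPM in WT (log2 fold change -2.78, SE 0.14, adjusted p = 7.24e-09). Top1, DNA topoisomerase I, had 193 and 144 CPM in S38A, 55.4 and 46.2 CPM in S38D and 64.99 and 59.2 CPM in WT (log2 fold change -1.73, SE 0.15, adjusted p = 1.91e-06). In each case both S38A libraries were above the other 4. For Slc41a2 and Top1 both S38D libraries lay below both WT libraries. For Ackr4 the higher S38D library and the lower WT library were level at 4.53 CPM. Ackr4 shares bases with Acad11 on the other strand, which was at most at 2.13 CPM in the 4 libraries.

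Sh2d1b1 and Osbpl3 showed the other order, with S38D below both S38A and WT. Sh2d1b1, an adaptor of SLAM family receptors also called EAT-2, had 19.3 and 16.7 CPM in S38A, 3.91 and 5.44 CPM in S38D and 18.9 and 19.3 CPM in WT (log2 fold change -1.93, SE 0.25, adjusted p = 8.44e-05). Against WT it was lower in S38D by -2.02 (log2 fold change, adjusted p = 0.000107), while S38A did not pass that test (adjusted p = 0.832). Osbpl3, an oxysterol-binding protein, was likewise at 23.3 and 18.3 CPM in S38A, 6.59 and 5.98 CPM in S38D and 19.1 and 14.9 CPM in WT (log2 fold change -1.72, SE 0.23, adjusted p = 0.000118).

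For the remaining lowered genes of this size WT lay between the mutants or near S38D. Dnmt1, the maintenance DNA methyltransferase, had 344 and 376 CPM in S38A, 119 and 107 CPM in S38D and 195 and 189 CPM in WT, with the 3 lines apart (log2 fold change -1.68, SE 0.18, adjusted p = 7.31e-05). Abr, a regulator of small GTPases, had 87.1 and 84.2 CPM in S38A, 21.01 and 14.3 CPM in S38D and 37.03 and 34.5 CPM in WT (log2 fold change -2.28, SE 0.18, adjusted p = 5.4e-07). Pecam1, an adhesion receptor of leukocytes and endothelium, had 74.1 and 70.7 CPM in S38A, 17.5 and 12.1 CPM in S38D and 19.3 and 18.4 CPM in WT (log2 fold change -2.29, SE 0.17, adjusted p = 5.28e-07). Also lower, given as log2 fold changes, were Anxa10 (-2.47), an annexin, Neurl1a (-2.44), a ubiquitin ligase, and Zc3h12d (-1.69), an RNase of the Regnase family. Arhgap4, a GTPase-activating protein on the X chromosome, was lower as well (-2.65), and Naa10, which shares bases with it, was lower by less (-0.53), a call that 3 of 22 alternatives ended.

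Chromosome 12 stood apart from all other chromosomes. Of 383 genes tested on it, 145 were lower in S38D (37.9%) and 10 higher (2.61%), and 338 (88.3%) had a fitted log2 fold change below 0. The median on chromosome 12 was -0.53, against medians of -0.15 to 0.06 on the other autosomes and the X. Reads of chromosome 12 genes made up 2.85% and 2.88% of gene reads in the S38A libraries, 2.05% and 2.04% in S38D, and 2.01% and 2.03% in WT. The median log2 fold change on the chromosome relative to WT was 0.63 in S38A and 0.07 in S38D. The shift ran along the whole chromosome, with medians of -0.31 to -0.66 in 6 consecutive blocks of 63 or 64 genes. In asynchronous cells the median was -0.49. Leaving out 1 of the 4 libraries left 75 (S38D replicate 2) to 103 (S38D replicate 1) calls on the chromosome, 87 without S38A replicate 1 and 97 without S38A replicate 2, and DESeq2 made 93.

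**Figure D3:**
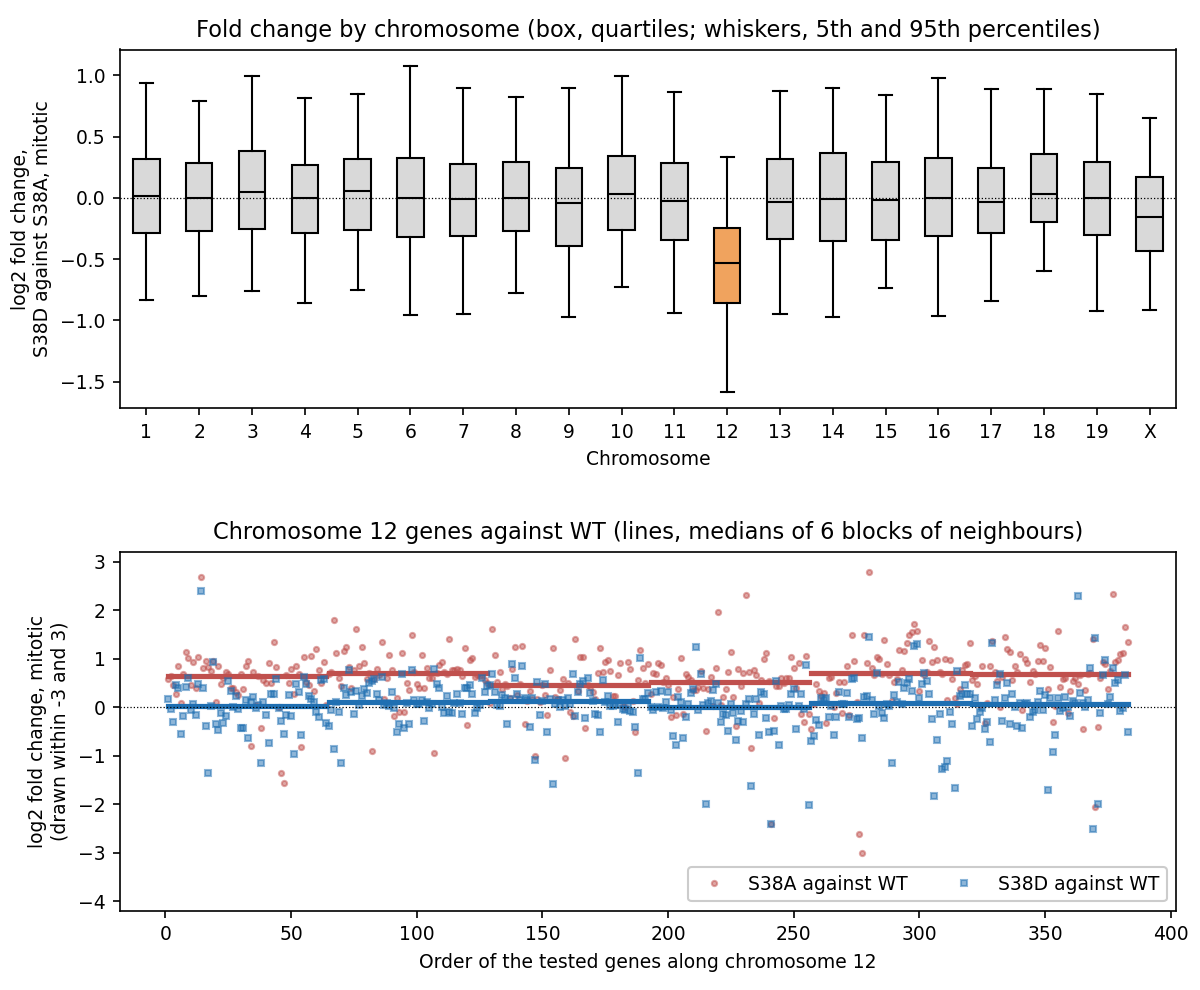
Upper panel: log2 fold change of S38D against S38A in mitotic cells by chromosome (boxes, quartiles; whiskers, 5th and 95th percentiles), with chromosome 12 in orange at a median of -0.53. Lower panel: log2 fold change against WT of each of the 383 chromosome 12 genes in their order on the chromosome (values beyond -3 or 3 are drawn at these limits), with horizontal lines for the medians of 6 blocks, which lie at 0.46 to 0.71 for S38A and at 0.00 to 0.13 for S38D.

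Differences of about that size on chromosome 12 were therefore read apart from the rest of the genome, and larger ones named. Crip1 (chromosome 12, 113146316 to 113153879), a small LIM domain protein, had 70.5 and 61.2 CPM in S38A, 4.53 and 4.17 CPM in S38D and 26.1 and 23.9 CPM in WT (log2 fold change -3.92, SE 0.19, adjusted p = 6.87e-09). Otub2, a deubiquitinase, had 116 and 83.1 CPM in S38A and 32.8 and 30.6 CPM in S38D (log2 fold change -1.65, SE 0.16, adjusted p = 5.94e-06), and Baz1a, a subunit of chromatin remodelling complexes, had 95.6 and 77.8 and 31.7 and 29.4 CPM (log2 fold change -1.51, SE 0.25, adjusted p = 0.00188). The chromatin protein Arid4a (-1.59) and the RNA silencing factor Nrde2 (-1.62) were lower by similar amounts. Against this trend, Tmem121 (chromosome 12, 113185930 to 113189523), a membrane protein whose gene lies near that of Crip1, had 2.71 and 3.19 CPM in S38A, 34.2 and 32.8 CPM in S38D and 12.9 and 12.1 CPM in WT (log2 fold change 3.49, SE 0.22, adjusted p = 6.68e-08). Tmed10, a cargo receptor of the early secretory pathway, rose from 74.5 and 76.1 CPM to 104 and 95.7 CPM (log2 fold change 0.41, SE 0.13, adjusted p = 0.0378), a call that 9 of 22 alternatives ended. Chromosome X leaned the same way at a smaller size, with 50 of 308 genes lower in S38D, 13 higher and a median of -0.15.

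Gene lists were read against the shares of all genes outside chromosome 12, which were 7.70% higher and 9.10% lower. Among lists with at least 15 tested members, the lowest medians were those of germinal centre genes, interferon-stimulated genes and p53 targets. The highest were those of hosts of small nucleolar RNAs and replication-dependent histone genes. Members on chromosome 12 are named apart.

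**Figure D4:**
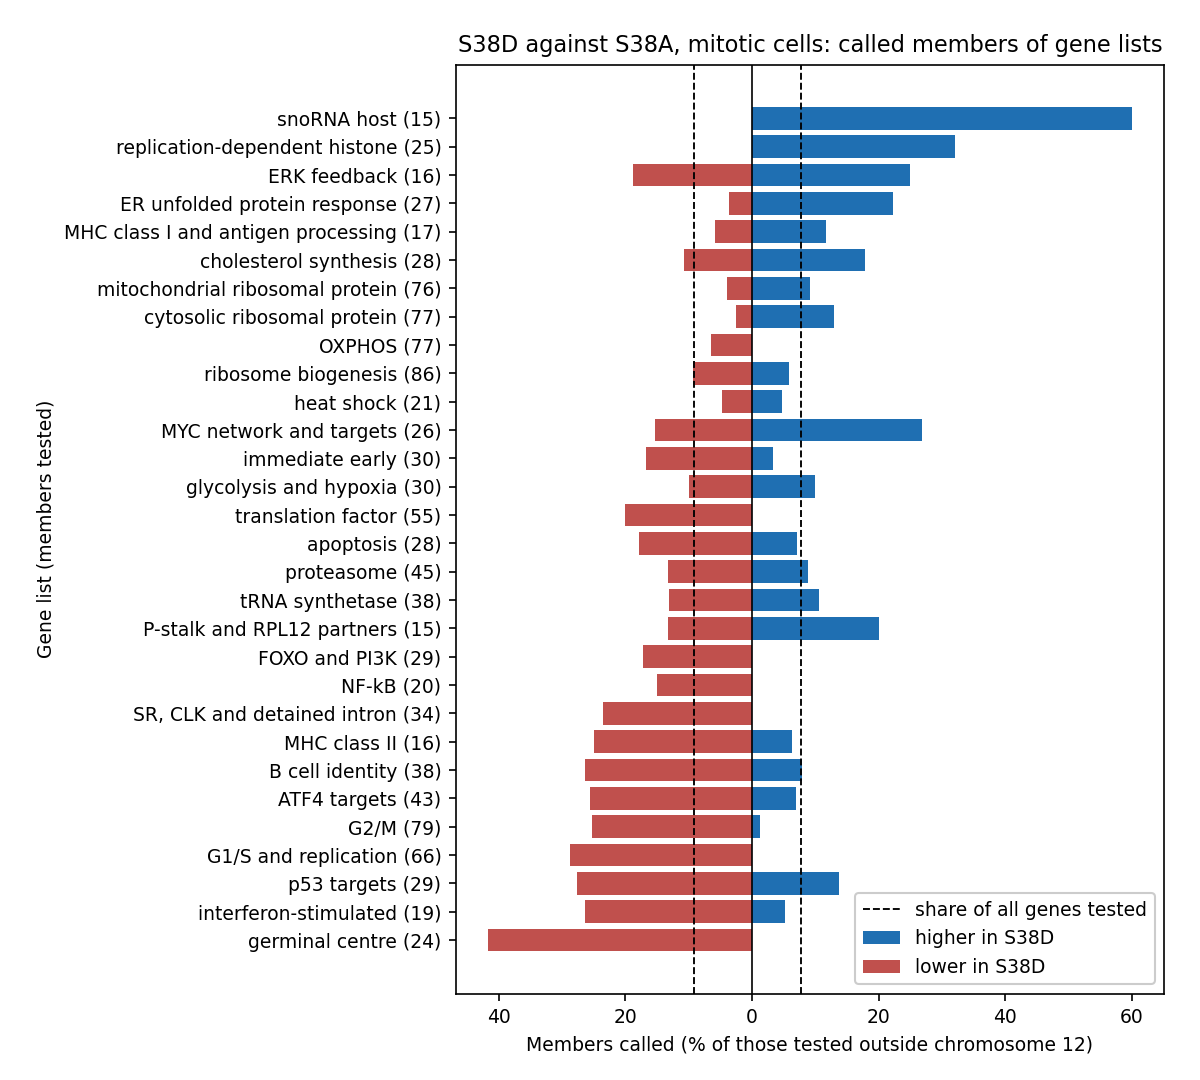
Members called higher (blue, to the right) or lower (red, to the left) in S38D against S38A, as a percentage of the members tested outside chromosome 12 (number in brackets), for lists with at least 15 tested members, ordered by median log2 fold change. The dashed lines mark the shares over all genes outside chromosome 12, 7.70% higher and 9.10% lower.

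Of 24 germinal centre genes tested, 10 were lower in S38D, 21 had a fitted value below 0, and the median log2 fold change was -0.50. These genes serve the stage at which activated B cells mutate and switch their antibody genes. Bcl6, the repressor that maintains the germinal centre state, had 166 and 179.8 CPM in S38A, 98.7 and 88.96 CPM in S38D and 80.1 and 72.9 CPM in WT (log2 fold change -0.88, SE 0.12, adjusted p = 0.000206). Klhl6, an adaptor of a ubiquitin ligase needed for germinal centres, had 114 and 132 CPM in S38A, 39.3 and 41.9 CPM in S38D and 51.2 and 51.1 CPM in WT (log2 fold change -1.60, SE 0.14, adjusted p = 1.59e-06). Nuggc, a GTPase of germinal centre B cells, had 56.6 and 56.02 CPM in S38A and 22.04 and 19.8 CPM in S38D (log2 fold change -1.43, SE 0.16, adjusted p = 2.05e-05). In all 3 genes both S38A libraries exceeded the other 4, and S38D did not pass the test against WT (adjusted p = 0.228, 0.205 and 0.809). Against WT, 14 members were higher in S38A (median 0.66), whereas 1 was higher in S38D (median 0.09). With single libraries left out, the list had lower members in these numbers: 5 without S38A mitotic replicate 2 or S38D mitotic replicate 2, 6 without S38A mitotic replicate 1 or S38D mitotic replicate 1.

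Of 38 B cell identity genes tested, 10 were lower and 3 higher, 30 had a fitted value below 0, and the median was -0.21. The lower members included the transcription factor Pou2f2 (-0.68) and its coactivator Pou2af1 (-0.62), with 1 alternative ending the latter call, and the factors Ebf1 (-0.43) and Irf8 (-0.54), all as log2 fold changes. The calls of Ebf1 and Irf8 were ended by 3 and 5 of 22 alternatives. Lat2, an adaptor of antigen receptor signalling, was low in both mutants and lowest in S38D, with 23.3 and 17.9 CPM in S38A, 7.00 and 6.70 CPM in S38D and 76.7 and 82.7 CPM in WT (log2 fold change -1.59, SE 0.19, adjusted p = 5.82e-05). Rfc2, whose bases overlap Lat2, was lower too (-0.43), a call that 10 alternatives ended. Cd72, an inhibitory co-receptor, went the other way, with 72.7 and 81.6 CPM in S38A, 154 and 144 CPM in S38D and 45.2 and 48.9 CPM in WT (log2 fold change 0.95, SE 0.13, adjusted p = 0.000164). Lower members numbered 4 without S38A mitotic replicate 1, 5 without S38A mitotic replicate 2 or S38D mitotic replicate 2, 6 without S38D mitotic replicate 1. Higher ones numbered 5 without either S38D asynchronous library or both libraries that stood apart. Among antigen presentation genes, 4 of 16 of the MHC class II list were lower and 1 higher, with H2-DMb2, a chaperone of peptide loading, at 153 and 139 CPM in S38A and 97.02 and 107 CPM in S38D (log2 fold change -0.52, SE 0.12, adjusted p = 0.00591), a call that 2 of 22 alternatives ended. Of this list the lower members were 1 without S38A mitotic replicate 1, 2 without S38A mitotic replicate 2.

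Of 6 immunoglobulin constant region genes tested, 1 of the 4 outside chromosome 12 was higher, 3 did not pass the test, and both on chromosome 12 were lower. Igkc, the kappa light chain on chromosome 6, had 2554 and 2312 CPM in S38A and 3371 and 3514 CPM in S38D (log2 fold change 0.50, SE 0.11, adjusted p = 0.00648), and 2 of 22 alternatives ended this call. Ighm, the mu heavy chain on chromosome 12, had 343 and 370.0 CPM in S38A and 211 and 218 CPM in S38D (log2 fold change -0.73, SE 0.11, adjusted p = 0.000377). The median of its chromosome was -0.53. Ighg3, also on chromosome 12, fell further, from 7.59 and 9.22 CPM to 2.47 and 3.08 CPM, beside 9.07 and 13.4 CPM in WT (log2 fold change -1.58, SE 0.30, adjusted p = 0.00185).

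Among cell cycle genes more were lower than higher in S38D. Of 66 G1/S and replication genes tested outside chromosome 12, 19 were lower, 0 were higher and the median log2 fold change was -0.29, and Rrm2 on chromosome 12 fell too (-0.88). Cdc6, which loads the replicative helicase, had 97.99 and 104 CPM in S38A, 44.1 and 46.8 CPM in S38D and 44.96 and 42.1 CPM in WT (log2 fold change -1.15, SE 0.12, adjusted p = 1.05e-05). Rpa1, the large subunit of the single-strand DNA binding complex, had 212 and 218 CPM in S38A, 116 and 113 CPM in S38D and 123 and 106 CPM in WT (log2 fold change -0.91, SE 0.11, adjusted p = 7.02e-05). For both genes the WT and S38D libraries overlapped, below both S38A libraries. Among the helicase subunits, Mcm5 had 629.9 and 636 CPM in S38A and 365 and 402 CPM in S38D (log2 fold change -0.72, SE 0.12, adjusted p = 0.000582), Mcm7 had 174 and 188 and 115 and 105 CPM (log2 fold change -0.72, SE 0.14, adjusted p = 0.00274), and Mcm6 had 334 and 319.5 and 238 and 258 CPM (log2 fold change -0.40, SE 0.11, adjusted p = 0.0252). Of these, the call of Mcm7 was ended by 1 and that of Mcm6 by 4 of 22 alternatives. Across the list, lower members were 10 without S38D mitotic replicate 2, 11 without S38A mitotic replicate 2.

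Many replication genes carry sites for E2F transcription factors close to their start. RefSeq promoter windows (GRCm38.p6, 250 bases before to 50 after the start) were searched on both strands for TTTCCCGC and TTTGGCGC, and a window with both was counted once. At least one of them was present in 7 of the 17 lower members with a window (41.2%), in 9 of 37 members that were not called (24.3%), in 3.92% of the 8112 genes tested with a window and in 1.56% of all 32851 windows. For 4 lower members, 60 bases of the window around the match are given, written 5′ to 3′ on the strand of the gene, with the matched letters in capitals. The match lies 138 bases before the start in Cdc6, 149 in Mcm5, 110 in Mcm6, which has another at 47, and 165 in Mcm7. A match is a description of these letters and not evidence of binding.
Cdc6, chr11:98907987-98908046, forward strand: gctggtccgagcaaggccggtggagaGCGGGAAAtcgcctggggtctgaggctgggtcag
Mcm5, chr8:75109334-75109393, forward strand: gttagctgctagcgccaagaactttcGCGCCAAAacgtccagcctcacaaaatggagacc
Mcm6, chr1:128359782-128359841, reverse strand: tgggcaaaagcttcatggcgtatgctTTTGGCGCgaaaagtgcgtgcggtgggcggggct
Mcm7, chr5:138172015-138172074, reverse strand: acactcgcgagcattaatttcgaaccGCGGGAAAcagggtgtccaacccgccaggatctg

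Of 79 G2/M genes tested, 20 were lower in S38D and 1 higher, with a median log2 fold change of -0.27. Cdc20, the activator of the anaphase-promoting complex, had 326 and 325 CPM in S38A, 189 and 191 CPM in S38D and 219 and 196 CPM in WT (log2 fold change -0.78, SE 0.12, adjusted p = 0.000323). Kif23, a kinesin of the central spindle, had 82.8 and 80.1 CPM in S38A, 45.7 and 40.4 CPM in S38D and 46.9 and 38.4 CPM in WT (log2 fold change -0.92, SE 0.13, adjusted p = 0.000277). Nusap1, a microtubule-binding protein of the spindle, had 77.6 and 76.4 CPM in S38A, 42.02 and 36.96 CPM in S38D and 36.7 and 31.4 CPM in WT (log2 fold change -0.96, SE 0.14, adjusted p = 0.00029). Again both S38A libraries exceeded the other 4. Cyclin B2 (Ccnb2, -0.81), the chromosomal passenger Incenp (-0.92) and topoisomerase II alpha (Top2a, -0.65) were lower as well, while Mybl2, a transcription factor of proliferating cells, was higher (1.00, log2 fold change). Against WT, 26 G2/M genes were higher in S38A (median 0.36) and 2 were lower in S38D (median 0.09). With libraries left out, the G2/M list had lower members as follows: 10 without S38D mitotic replicate 2, 11 without either S38A mitotic library, 12 without S38D mitotic replicate 1, 31 without both libraries that stood apart.

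Tubulin genes, whose mRNA is degraded when free tubulin rises, had fitted values below 0 in 10 of 13 cases, with 2 called lower and a median of -0.24. Tubb5, a beta tubulin, had 657 and 732 CPM in S38A, 499.7 and 466 CPM in S38D and 485 and 487 CPM in WT (log2 fold change -0.53, SE 0.13, adjusted p = 0.0128), and 3 of 22 alternatives ended the call. Tubb2a had 15.6 and 14.7 CPM in S38A, 5.97 and 9.78 CPM in S38D and 29.7 and 28.5 CPM in WT (log2 fold change -0.93, SE 0.21, adjusted p = 0.00635), with the call ended by 2 alternatives. Lower tubulins were 0 without S38D mitotic replicate 1, 1 without either S38A mitotic library or S38D mitotic replicate 2, 4 without either S38D asynchronous library or both libraries that stood apart.

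Replication-dependent histone genes, whose mRNA normally ends in a stem-loop in place of a poly(A) tail, ran against the replication genes. Of 25 tested, 8 were higher in S38D and the median log2 fold change was 0.79. Hist1h1c, a linker histone, had 252 and 275 CPM in S38A, 505 and 518 CPM in S38D and 280.3 and 301 CPM in WT (log2 fold change 0.96, SE 0.11, adjusted p = 2.21e-05). Hist4h4 had 0.542 and 1.42 CPM in S38A and 4.74 and 5.07 CPM in S38D (log2 fold change 2.29, SE 0.44, adjusted p = 0.00207), with 3 and 8 reads in the S38A libraries. The library preparation starts from poly(A), so it counts only the tailed share of these transcripts, and near-identical copies can share reads. Higher members numbered 3 without S38A mitotic replicate 1, 4 without S38A mitotic replicate 2 or S38D mitotic replicate 1, 5 without S38D mitotic replicate 2.

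Among targets of ATF4, the transcription factor of the integrated stress response, more were lower than higher in S38D. Of 43 tested outside chromosome 12, 11 were lower and 3 higher, and the median log2 fold change was -0.24. Ddit4 (chromosome 10, 59949669 to 59951834), an inhibitor of mTORC1 also called REDD1, had 303 and 305 CPM in S38A, 101 and 94.6 CPM in S38D and 269 and 263 CPM in WT (log2 fold change -1.64, SE 0.11, adjusted p = 7.03e-08). S38A did not pass the test against WT here (adjusted p = 0.224), while S38D was low, by -1.45 against WT (log2 fold change, adjusted p = 5.67e-07). Trib3 (chromosome 2, 152337422 to 152344032), a pseudokinase that feeds back on ATF4, fell in steps over the 3 lines, with 229 and 202 CPM in WT, 75.2 and 71.8 CPM in S38A and 26.6 and 24.5 CPM in S38D (log2 fold change -1.53, SE 0.14, adjusted p = 2.96e-06). Chac1, an enzyme that degrades glutathione, had 13.02 and 9.57 CPM in S38A, 2.06 and 1.81 CPM in S38D and 9.64 and 9.87 CPM in WT (log2 fold change -2.53, SE 0.27, adjusted p = 1.7e-05).

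Asns, asparagine synthetase, had 66.2 and 81.2 CPM in S38A, 53.1 and 48.4 CPM in S38D and 114 and 98.5 CPM in WT (log2 fold change -0.54, SE 0.15, adjusted p = 0.0188), and 3 of 22 alternatives ended the call. Of 38 tRNA synthetase genes tested outside chromosome 12, 4 were higher and 5 lower, with a median of -0.10. Among the lower ones, Aars (82.3 and 76.9 CPM in S38A, 32.1 and 36.1 in S38D), Tars (398 and 421, 246 and 208) and Nars (213 and 200.3, 132 and 113) differed by -1.22, -0.85 and -0.76 (log2 fold changes, adjusted p = 0.000167, 0.000761 and 0.000458). Asns and these 3 genes had their S38D libraries below both S38A libraries. The amino acid transporters Slc7a3 (1.21) and Slc7a5 (0.77) and the transaminase Got1 (0.51) were the 3 higher ATF4 targets. Of 21 alternatives 15 ended the call of Slc7a3, and 2 of 22 that of Got1. Jdp2 (chromosome 12, 85599027 to 85639878), a bZIP repressor of the AP-1 family that ATF4 induces, fell by more than the median of its chromosome, with 84.6 and 81.4 CPM in S38A, 22.9 and 22.7 CPM in S38D and 100.3 and 82.9 CPM in WT (log2 fold change -1.87, SE 0.15, adjusted p = 6.93e-07). Atf4 mRNA had 1645 and 1491 CPM in S38A and 1436 and 1136 CPM in S38D and did not pass the test (log2 fold change -0.29, SE 0.12, adjusted p = 0.125). Against WT, both mutants were low for this list: 26 members were lower in S38A (median -0.55) and 25 in S38D (median -0.76). Members lower in S38D than in S38A numbered 7 without S38A mitotic replicate 2, 18 without S38D asynchronous replicate 2, 19 without S38D asynchronous replicate 1, 21 without both libraries that stood apart. Higher ones numbered 1 without S38A mitotic replicate 2, 6 without either S38D asynchronous library, 7 without both libraries that stood apart. Of the tRNA synthetases, higher ones were 0 without S38A mitotic replicate 1 or S38D mitotic replicate 1, 1 without S38A mitotic replicate 2 or S38D mitotic replicate 2, 2 without WT asynchronous replicate 1, and lower ones 8 without S38D asynchronous replicate 1, 9 without both libraries that stood apart.

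ATF4 acts through sites with a TGATGNAA core, bound together with C/EBP family proteins. The same windows were searched for this motif on both strands. It was present in 6 of 11 lower members with a window, Jdp2 included (54.5%), in 7 of 26 members that were not called (26.9%), in Got1, the 1 higher member with a window, in 2.61% of the 8112 genes tested with a window and in 3.97% of all windows. Windows of 60 bases are shown for 5 lower members because they share this element, with the match in capitals and each written 5′ to 3′ on the strand of the gene.
Chac1, chr2:119351023-119351082, forward strand: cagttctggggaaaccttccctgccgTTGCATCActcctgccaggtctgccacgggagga
Asns, chr6:7693210-7693269, reverse strand: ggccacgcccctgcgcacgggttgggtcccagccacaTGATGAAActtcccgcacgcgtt
Aars, chr8:111033704-111033763, forward strand: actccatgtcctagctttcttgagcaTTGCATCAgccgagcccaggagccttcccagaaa
Tars, chr15:11399659-11399718, reverse strand: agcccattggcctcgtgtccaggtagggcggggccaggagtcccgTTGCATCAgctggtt
Jdp2, chr12:85599356-85599415, forward strand: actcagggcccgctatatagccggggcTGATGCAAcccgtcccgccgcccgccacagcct
The match lies 193 bases before the start in Chac1, 23 in Asns, 112 in Aars, 15 in Tars and 33 in Jdp2, and in Chac1, Aars and Tars it reads in the antisense orientation.

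The genes of the translation machinery did not move as a block. Of 77 cytosolic ribosomal protein genes, 10 were higher and 2 lower in S38D, with a median of 0.03. Spike-in scaling left 2 higher and 1 lower and put the median at -0.02. Higher ones were 0 without S38D mitotic replicate 2, 1 without S38A mitotic replicate 2, 2 without S38D mitotic replicate 1, 3 without S38A mitotic replicate 1, 6 without WT asynchronous replicate 1. Lower ones were 0 without S38A mitotic replicate 1 or either S38D mitotic library, 1 without either WT asynchronous library, either S38A asynchronous library, either WT mitotic library or S38A mitotic replicate 2, 4 without S38D asynchronous replicate 2, 5 without S38D asynchronous replicate 1, 6 without both libraries that stood apart. Among the partners of RPL12 in the P-stalk, Rplp1 had 5203 and 4764 CPM in S38A and 7004 and 6634 CPM in S38D (log2 fold change 0.45, SE 0.11, adjusted p = 0.0121), Rplp0 had 2569 and 2307 and 2977 and 3323 CPM (log2 fold change 0.37, SE 0.11, adjusted p = 0.0329), and Rplp2 had 173 and 147 and 155 and 171 CPM (log2 fold change 0.03, SE 0.12, adjusted p = 0.912). The calls of Rplp1 and Rplp0 were ended by 4 and 6 of 22 alternatives. Eef2, the elongation factor that docks at this site, went the other way with 4083 and 3960.0 CPM in S38A, 2882 and 2943 CPM in S38D and 3893 and 3374 CPM in WT (log2 fold change -0.47, SE 0.12, adjusted p = 0.0113), and 4 of 22 alternatives ended its call. Mrto4, which takes the place of the stalk protein P0 during assembly of the subunit, had 527 and 543 CPM in S38A and 751 and 729 CPM in S38D (log2 fold change 0.47, SE 0.11, adjusted p = 0.00782), with its call ended by 5 alternatives.

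Translation factors leaned lower. Of 55 tested outside chromosome 12, 11 were lower and the median was -0.08, and 3 more were lower on chromosome 12. Eif4g3, a scaffold of the cap-binding complex, had 38.2 and 46.5 CPM in S38A, 16.3 and 17.6 CPM in S38D and 14.2 and 15.6 CPM in WT (log2 fold change -1.32, SE 0.21, adjusted p = 0.000514). Eif5b, the GTPase that joins the ribosomal subunits and is one of the factors that contact the stalk, had 109.6 and 85.1 CPM in S38A, 44.1 and 38.4 CPM in S38D and 46.5 and 39.3 CPM in WT (log2 fold change -1.24, SE 0.19, adjusted p = 0.000481). Eif3c, a core subunit of the initiation factor eIF3, had 315 and 342 CPM in S38A, 167 and 168 CPM in S38D and 292 and 236 CPM in WT (log2 fold change -0.97, SE 0.15, adjusted p = 0.00038). S38D did not pass the test against WT for Eif4g3 (adjusted p = 0.696) or Eif5b (adjusted p = 0.901), and for Eif3c WT lay between the mutants. Lower factors were 4 without S38D mitotic replicate 2, 5 without S38A mitotic replicate 2, 6 without S38A mitotic replicate 1 or S38D mitotic replicate 1, 19 without both libraries that stood apart.

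Hosts of small nucleolar RNAs were the list with the highest median. These transcripts carry guides of ribosomal RNA modification in their introns, and many of the spliced hosts begin with a terminal oligopyrimidine tract and are degraded by nonsense-mediated decay. Of 15 tested, 9 were higher in S38D, all 15 had a fitted value above 0, and the median was 0.82. Snhg20 had 32.7 and 34.9 CPM in S38A, 94.8 and 101 CPM in S38D and 72.4 and 70.4 CPM in WT (log2 fold change 1.53, SE 0.14, adjusted p = 4.27e-06). Dancr had 3.44 and 1.77 CPM in S38A, 7.83 and 10.3 CPM in S38D and 9.26 and 5.92 CPM in WT (log2 fold change 1.80, SE 0.38, adjusted p = 0.00429), and 3 of 21 alternatives ended the call. Snhg9 had 587 and 546 CPM in S38A, 1207 and 1305 CPM in S38D and 1248 and 1022 CPM in WT (log2 fold change 1.15, SE 0.12, adjusted p = 1.85e-05), and Snhg3 had 222 and 189, 447 and 433 and 356 and 373 CPM (log2 fold change 1.10, SE 0.12, adjusted p = 2.4e-05). In S38A these transcripts were below both other lines, and S38D did not pass the test against WT (adjusted p = 0.0803, 0.731, 0.574 and 0.241). Snhg9 overlaps Rps2 on the other strand and Snhg3 overlaps Rcc1 on the same strand, and neither neighbour passed the test (adjusted p = 0.475 and 0.96). Higher hosts numbered 5 without S38A mitotic replicate 2 or S38D mitotic replicate 2. Against WT, 7 hosts were lower in S38A (median -0.48), whereas the median for S38D against WT was 0.25. Snora30, a small nucleolar RNA gene within Srcap, had 10.1 and 10.5 CPM in S38A and 32.1 and 38.4 CPM in S38D (log2 fold change 1.78, SE 0.21, adjusted p = 3.8e-05).

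Of 86 ribosome biogenesis genes 5 were higher and 8 lower, shares near those of all genes, and the median was 0.00. Ncl, the nucleolar protein nucleolin, had 731 and 629 CPM in S38A, 310.4 and 336 CPM in S38D and 317 and 277 CPM in WT (log2 fold change -1.07, SE 0.13, adjusted p = 6.11e-05). Nop10, a subunit of the pseudouridylation complex, had 811 and 833 CPM in S38A and 1248 and 1300.0 CPM in S38D (log2 fold change 0.63, SE 0.10, adjusted p = 0.000408). Lower members of this list were 2 without either S38A mitotic library or either S38D mitotic library, 3 without WT asynchronous replicate 2, 5 without WT asynchronous replicate 1 or either S38A asynchronous library, 14 without both libraries that stood apart. Higher ones were 1 without S38A mitotic replicate 2 or S38D mitotic replicate 1, 2 without S38A mitotic replicate 1 or S38D mitotic replicate 2, 9 without S38D asynchronous replicate 1, 10 without S38D asynchronous replicate 2, 14 without both libraries that stood apart.

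Splicing regulators with detained introns, which hold part of their transcripts in the nucleus, had 8 of 34 members lower and a median of -0.19. Ddx5, an RNA helicase, had 102 and 99.98 CPM in S38A, 62.00 and 50.4 CPM in S38D and 43.3 and 41.3 CPM in WT (log2 fold change -0.84, SE 0.13, adjusted p = 0.000317). Both S38A libraries were above all other mitotic libraries. Lower ones numbered 3 without either S38A mitotic library or either S38D mitotic library, 5 without either S38A asynchronous library, 13 without both libraries that stood apart.

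Signalling genes gave mixed directions. Of 16 genes of ERK output and feedback, 4 were higher and 3 lower, with a median of 0.30. Besides Spry2, the ETS factor Etv4 had 5.24 and 8.33 CPM in S38A, 20.2 and 22.3 CPM in S38D and 23.2 and 20.2 CPM in WT (log2 fold change 1.64, SE 0.27, adjusted p = 0.000715). Dusp2, an inducible phosphatase of ERK, had 1620.0 and 1498 CPM in S38A, 1040.0 and 1029 CPM in S38D and 859.9 and 874 CPM in WT (log2 fold change -0.59, SE 0.10, adjusted p = 0.000723), and Dusp1 was also lower (-1.16), a call that 1 alternative ended. Of this list, higher members were 2 without S38A mitotic replicate 1 or S38D mitotic replicate 2, and lower ones 1 without S38D mitotic replicate 1. Of 30 immediate early genes outside chromosome 12, 5 were lower and 1 higher (median -0.05), among them Rgs2, an inhibitor of G protein signalling, with 511 and 534 CPM in S38A, 267 and 295 CPM in S38D and 249 and 255 CPM in WT (log2 fold change -0.90, SE 0.12, adjusted p = 0.000109). Lower immediate early genes were 2 without S38A mitotic replicate 2 or S38D mitotic replicate 1. Of 29 FOXO and PI3K genes 5 were lower (median -0.13), and Foxo1, the factor that PI3K signalling holds out of the nucleus, had 160.4 and 162 CPM in S38A, 100.3 and 89.1 CPM in S38D and 107 and 107 CPM in WT (log2 fold change -0.77, SE 0.11, adjusted p = 0.000174). Lower FOXO and PI3K genes were 3 without S38A mitotic replicate 2 or S38D mitotic replicate 2, 8 without both libraries that stood apart.

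Of 29 p53 targets 8 were lower and 4 higher (median -0.33). Gdf15, a stress-induced cytokine that ATF4 and p53 both drive, had 610.2 and 571 CPM in S38A, 393 and 333 CPM in S38D and 496 and 479 CPM in WT (log2 fold change -0.70, SE 0.11, adjusted p = 0.000347). Btg2, an antiproliferative protein, had 113 and 107 CPM in S38A and 53.8 and 69.4 CPM in S38D (log2 fold change -0.84, SE 0.14, adjusted p = 0.000583). Lower p53 targets were 2 without S38D mitotic replicate 2, 4 without S38A mitotic replicate 1 or S38D mitotic replicate 1, 5 without S38A mitotic replicate 2. Higher ones were 0 without S38D mitotic replicate 2, 1 without either S38A mitotic library or S38D mitotic replicate 1. Of 19 interferon-stimulated genes 5 were lower and 1 higher (median -0.43). The lower ones included Irf1 and Dhx58, whose calls were ended by 2 of 22 and 3 of 21 alternatives. The higher one, the antiviral tether Bst2, had 54.2 and 59.4 CPM in S38A, 143 and 121 CPM in S38D and 83.1 and 93.5 CPM in WT (log2 fold change 1.22, SE 0.14, adjusted p = 2.96e-05). Lower interferon-stimulated genes were 1 without either S38A mitotic library or S38D mitotic replicate 2, 2 without WT asynchronous replicate 2, either S38A asynchronous library or S38D mitotic replicate 1, 10 without both libraries that stood apart.

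Of 27 genes of the unfolded protein response of the endoplasmic reticulum, 6 were higher and 1 lower outside chromosome 12, and 23 had a fitted value above 0 (median 0.29). Calr, a chaperone of glycoproteins, had 815 and 797 CPM in S38A, 1136 and 1135 CPM in S38D and 1001 and 852 CPM in WT (log2 fold change 0.50, SE 0.11, adjusted p = 0.00456), and Hyou1, another chaperone, had 59.3 and 60.3 and 101 and 129 CPM in the mutants (log2 fold change 0.95, SE 0.19, adjusted p = 0.00417), with 1 alternative ending its call. The lower member was Xbp1, the transcription factor of this response, with 237 and 229.9 CPM in S38A, 135 and 147 CPM in S38D and 146 and 175 CPM in WT (log2 fold change -0.73, SE 0.12, adjusted p = 0.000582). Higher genes of this response numbered 1 without S38D mitotic replicate 2, 2 without S38A mitotic replicate 2, 3 without S38D mitotic replicate 1, 10 without S38D asynchronous replicate 1, 11 without S38D asynchronous replicate 2, 15 without both libraries that stood apart.

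Cholesterol synthesis had 5 of 28 members higher and 3 lower (median 0.19), a balance that spike-in scaling turned, with 2 higher and 4 lower. Among the lower ones Hmgcs1, which acts at the start of the pathway, had 661 and 590.0 CPM in S38A, 425 and 404 CPM in S38D and 906 and 797 CPM in WT (log2 fold change -0.59, SE 0.10, adjusted p = 0.00103). Against WT, 19 members were lower in S38A and 17 in S38D, and higher members in S38D against S38A were 2 without either S38A mitotic library or either S38D mitotic library, 9 without both libraries that stood apart. The lower ones were 6 without either S38D asynchronous library or both libraries that stood apart. Of 7 mitochondrially encoded transcripts 3 were higher (median 0.41), with mt-Co1, a subunit of cytochrome oxidase, at 208 and 194 CPM in S38A and 295 and 307 CPM in S38D (log2 fold change 0.58, SE 0.11, adjusted p = 0.00219). Higher mitochondrial transcripts were 1 without either S38A mitotic library or S38D mitotic replicate 1. Of 77 nuclear genes of oxidative phosphorylation 5 were lower (median 0.01), including Atp5a1, a subunit of ATP synthase, with 1069 and 1032 CPM in S38A, 647 and 646 CPM in S38D and 621 and 639.8 CPM in WT (log2 fold change -0.70, SE 0.11, adjusted p = 0.000383). Lower genes of oxidative phosphorylation were 2 without either S38A mitotic library or S38D mitotic replicate 2, 3 without S38D mitotic replicate 1, 9 without either S38D asynchronous library or both libraries that stood apart. Pfkp, a phosphofructokinase of glycolysis, was lower with 128 and 127 CPM in S38A and 65.3 and 65.6 CPM in S38D (log2 fold change -0.96, SE 0.13, adjusted p = 0.000191). Of 26 MYC network and target genes 7 were higher and 4 lower (median -0.01), and the higher ones were 2 without either S38A mitotic library or S38D mitotic replicate 2, 4 without S38D mitotic replicate 1. The lower MYC genes were 1 without either S38A mitotic library or S38D mitotic replicate 2, 2 without either WT asynchronous library, either S38A asynchronous library, either WT mitotic library or S38D mitotic replicate 1. The remaining lists (heat shock, mitochondrial ribosomal proteins, plasma cell, MHC class I, NF-kB, apoptosis, glycolysis, proteasome and nuclear long noncoding RNAs) had medians between -0.14 and 0.26.

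The counts of list members also moved with the scaling and the tool. With spike-in scaling, which lowered every median, higher members numbered 1 for ATF4 targets, p53 targets and mitochondrially encoded transcripts. They numbered 2 for ribosome biogenesis and tRNA synthetase genes, 3 for the unfolded protein response and MYC lists, and 5 for histone genes. Lower members then numbered 2 for the MYC list, 3 for interferon-stimulated and oxidative phosphorylation genes and 4 for ribosome biogenesis. With DESeq2, lower members numbered 12 for G2/M, 6 for germinal centre and for B cell identity, 4 for p53 targets and 3 for ribosome biogenesis and for FOXO and PI3K genes. DESeq2 further gave 2 lower immediate early genes, 1 lower interferon-stimulated gene, 1 lower MYC gene and 1 lower cytosolic ribosomal protein gene, and 1 higher tRNA synthetase, 4 higher MYC genes and 5 higher histone genes. With the 4 libraries fitted alone, higher and lower members were 7 and 19 for ATF4 targets, 13 and 13 for ribosome biogenesis and 9 and 6 for cholesterol synthesis. That fit also gave 15 higher genes of the unfolded protein response, 5 higher B cell identity genes, and as lower members 10 genes of oxidative phosphorylation, 9 interferon-stimulated genes, 8 tRNA synthetases, 6 cytosolic ribosomal protein genes and 4 tubulins.

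One marker of another cell type was high. Hbb-bt, a beta globin gene, had 681 and 580.2 CPM in S38A, 251 and 252 CPM in S38D and 493 and 513 CPM in WT (log2 fold change -1.33, SE 0.11, adjusted p = 1.35e-06). It made up most of the summed level of the 5 tested members of the stromal, epithelial and erythroid list, with Pecam1 next. This sum was 763 and 657 CPM in S38A and 275 and 272 CPM in S38D. Of the 21 markers on that list 12 had no read in the 4 libraries.

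The same pair of lines was compared in asynchronous cells, which share no library with the mitotic comparison. There 341 of 10094 genes outside chromosome 12 were higher in S38D (3.38%) and 300 lower (2.97%). Spike-in scaling gave 252 higher and 99 lower genes. Of the mitotic calls 28.0% were also called in asynchronous cells, and of the asynchronous calls 74.1% were also called in mitotic cells: 475 genes in all, 474 of them in the same direction. The log2 fold changes of the 2 states had a Pearson r of 0.64 across these genes, or 0.72 over the 6777 genes with at least 10 CPM, as a description across genes, which are not independent replicates. Of the mitotic calls 92.7% had the same sign in asynchronous cells, beside 71.1% of all genes. The asynchronous count moved with either S38D asynchronous library: it was 1224 without replicate 1, which stood apart, 1248 without replicate 2, 171 and 204 without S38A asynchronous replicate 1 and 2, 1774 without both libraries that stood apart, and 370 with DESeq2.

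Of the genes with large differences in mitosis, Car2, Wnt10a, Kcnab2 and Adm also differed in asynchronous cells. Car2 had 1.89 and 0.862 CPM in asynchronous S38A and 15.9 and 38.4 CPM in asynchronous S38D (log2 fold change 4.25, adjusted p = 0.00171), with the 2 S38D libraries well apart from each other. Wnt10a had 0.788 and 0.517 CPM in asynchronous S38A and 38.7 and 34.1 CPM in asynchronous S38D (log2 fold change 5.74, adjusted p = 1.26e-09). Kcnab2 had 3.15 and 3.97 and 90.3 and 68.4 CPM (4.48, adjusted p = 4.05e-09). Adm differed by more in asynchronous cells, with 83.2 and 76.9 CPM in S38A and 655 and 518 CPM in S38D (2.87, adjusted p = 1.26e-09), although the difference between states was not called for it (adjusted p = 0.0542). For Snora30 the asynchronous levels were too low to compare the lines, with 0.788 and 0.345 CPM in S38A and 0.318 and 0.530 CPM in S38D (-0.44, adjusted p = 0.829). The difference between states was not called for it either (adjusted p = 0.414).

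**Figure D5:**
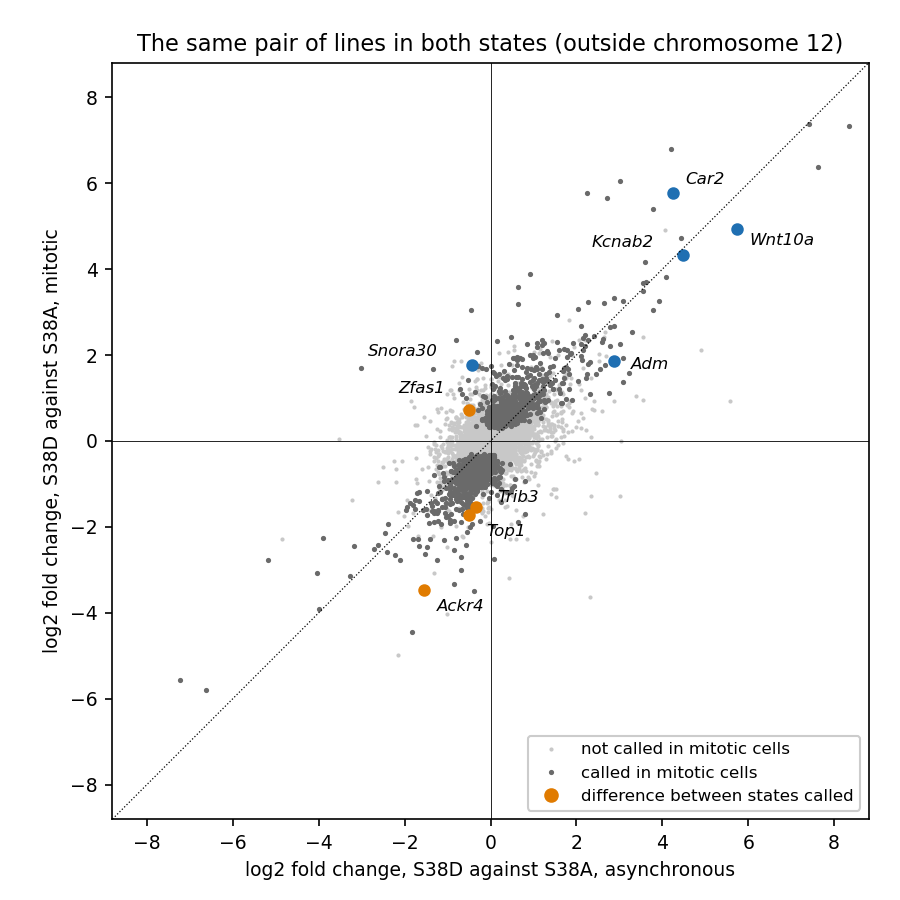
Log2 fold change of S38D against S38A in mitotic cells (vertical axis) and in asynchronous cells (horizontal axis) for the 10094 genes outside chromosome 12, with genes called in mitotic cells in dark grey, the others in light grey, 5 genes of the text in blue and the dotted line marking equal values. The 4 genes whose difference between states was called are orange: Ackr4, Top1 and Trib3 lie below the line and Zfas1 above it.

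A direct test of the difference between states called 4 of 10094 genes outside chromosome 12 (0.0396%) by edgeR, with 825 at an unadjusted p under 0.05 and 13 calls by DESeq2. Zfas1 (chromosome 2, 167062934 to 167065862), a host of small nucleolar RNAs, was the 1 gene that was higher: in mitotic cells it had 506 and 460.2 CPM in S38A and 822 and 778 CPM in S38D (log2 fold change 0.73, SE 0.11, adjusted p = 0.000377), and in asynchronous cells 528 and 548 and 351 and 407 CPM (-0.50, adjusted p = 0.0107). Its order was thus reversed between the states, with no overlap in either (difference 1.23, SE 0.16, adjusted p = 0.0073). Ackr4 was lower in S38D in both states and more so in mitosis, with 140.4 and 151 CPM in asynchronous S38A and 50.6 and 49.7 CPM in asynchronous S38D (difference -1.94, SE 0.27, adjusted p = 0.0135). Trib3 had 105 and 110.0 CPM in asynchronous S38A and 92.6 and 77.8 CPM in asynchronous S38D (difference -1.20, SE 0.19, adjusted p = 0.0337). For Top1 these levels were 264 and 303 and 210.4 and 193 CPM (difference -1.24, SE 0.21, adjusted p = 0.0467). The count of 4 was 0 without either S38A asynchronous or either S38D mitotic library, 1 without S38A mitotic replicate 1, 2 without WT asynchronous replicate 2 or either WT mitotic library, 21 without S38D asynchronous replicate 1, 315 without S38D asynchronous replicate 2 and 154 without both libraries that stood apart.

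WT mitotic cells place the 2 mutants, in 2 comparisons that share the WT libraries with each other and the mutant libraries with the comparison above. S38A differed from WT at 1626 genes outside chromosome 12, with 719 higher (7.12%) and 907 lower (8.99%). S38D differed from WT at 459, with 116 higher (1.15%) and 343 lower (3.40%), or 37 and 278 with spike-in scaling. The first count was 806 without WT mitotic replicate 1, 805 without S38A replicate 1 and 701 without S38A replicate 2. The second was 192 without WT mitotic replicate 1, 172 without S38D mitotic replicate 1, 178 without S38D mitotic replicate 2, and 1034 or 1048 without S38D asynchronous replicate 1 or 2. For the replication, G2/M and germinal centre lists the median relative to WT was 0.36 to 0.66 in S38A and 0.08 to 0.09 in S38D. For ATF4 targets both medians were below 0, at -0.55 and -0.76, and so were those of cholesterol synthesis, at -0.76 and -0.75. The difference between S38D and S38A in mitosis thus held genes at which S38A departed from WT, such as Car2, Ackr4 and many on chromosome 12, and genes at which S38D did, such as Ddit4, Sh2d1b1 and H1f0.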

How the data were processed

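Total RNA of 12 libraries (6 groups of 2) was sequenced from the 3′ end. The authors deposited raw read counts for 51826 genes and 92 spike-ins, and per the submitters' processing notes used bcl2fastq 2.16.0.10, cutadapt 1.12, STAR 2.5.3a and mm10. For the counting program, strand setting, multiple matches and annotation, "not given in the sources used here" applies, so genes that overlap others are uncertain, among them Cd72 (with Tesk1), Cdc20 (Elovl1), Nusap1 (Oip5) and Zfas1 (Znfx1). Positions are from GENCODE M21 (GRCm38, 99.63% of identifiers matched).

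Here genes were filtered with filterByExpr (minimum count 10), scaled by TMM and modelled with edgeR 4.0.16 in R 4.3.3, using 6 group means over all 12 libraries (6 residual degrees of freedom). P-values of the robust quasi-likelihood F test received Benjamini-Hochberg adjustment over 10477 genes, and genes under 0.05 were called, after the script was tested on simulated data. No set test was run. Alternatives were DESeq2 1.42.0, other scalings and filters, robust estimation off, only the groups compared, a replicate block and each library left out. Leaving out both libraries that stood apart was added after seeing the data. A group left with 1 library is assumed to vary like the others.

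The comparison and the 38 gene lists were chosen with earlier results of these data known. Named genes are Rpl12, the 14 called genes with the largest change in each direction outside chromosome 12 and 6 on it (mean of at least 10 CPM, lines apart), the genes of the difference between states (up to 5 in each direction), and the 3 members of each list with the smallest adjusted p. The other members named (Asns, Atf4, Ccnb2, Chac1, Dancr, Dusp1, Ebf1, Got1, Incenp, Irf8, Mcm5, Mcm6, Mcm7, Mybl2, Pou2af1, Pou2f2, Rplp0, Rplp1, Rplp2, Rrm2, Slc7a3, Slc7a5, Tars, Top2a) and neighbours were chosen after their values were seen. Some genes that the rule gave are not reported here.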

Additional observations from a re-analysis of the deposited data

Results flagged for a closer look

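The difference between S38D and S38A depended on the state of the cells for 4 genes, by the test of the difference itself. The value was 1.23 for Zfas1, -1.94 for Ackr4, -1.24 for Top1 and -1.20 for Trib3 (mitotic minus asynchronous log2 fold change). Each sign was the same in every alternative that gave a value. The call of Zfas1 was lost in 5 of 22 alternatives, of Ackr4 in 7 of 21, of Trib3 in 12 of 21 and of Top1 in 16 of 21, the missing one being DESeq2, which gave these 3 genes no adjusted p. Scaling to the spike-ins ended all 4 calls. S38D asynchronous replicate 1, far from its replicate, enters each of them, and without it the values were 1.15 (Zfas1), -1.90 (Ackr4), -1.15 (Top1, no longer called) and -1.04 (Trib3).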

How the results depend on the processing

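Of 134 called genes that the naming rule gave, 100 were called in the same direction in each of the alternatives that gave a value. Among 141 named genes in mitosis, called or not, scaling to the spike-ins ended 14 calls, DESeq2 9 (of 139 genes with a value), and leaving out 1 of the 4 compared libraries 20 to 27. One value changed sign: Malat1, which was not called, was at -0.04 without S38A mitotic replicate 2 and between -0.04 and 0.66 over all single libraries left out. For genes called outside chromosome 12, mitotic (1696), DESeq2 gave 972, spike-in scaling 1081, the 4 libraries alone 2915, single libraries left out 632 to 2539 and both libraries that stood apart left out 2986. On chromosome 12 (155), DESeq2 gave 93, single libraries left out 75 to 195 and both left out 218. The chromosome 12 median (-0.53) was -0.51 with DESeq2, -0.51 with its size factors and -0.59 with spike-ins. It was -0.40 without a filter, -0.50 with a filter of 10 CPM and -0.51 with only the groups compared. With single libraries left out it was -0.55 to -0.51. The median difference in level between the 2 libraries of 1 line gave a replicate SD of 0.00936 on this chromosome. That value describes single libraries and is not an SD of the fitted median. For asynchronous cells (641), DESeq2 gave 370, spike-ins 351, only the groups compared 89, single libraries left out 171 to 1248 and both left out 1774. For the difference between states (4), DESeq2 gave 13, spike-ins 0, no filter 23, the fit without robust estimation 1, only the groups compared 2, single libraries left out 0 to 315 and both left out 154. S38A against WT (1626) gave 973 with DESeq2, 1016 with spike-ins and 701 to 2395 with single libraries left out. S38D against WT (459) gave 283 with DESeq2, 691 without a filter and 172 to 1048 with single libraries left out. Rpl12 was not called in any alternative (0.02 to 0.39 with single libraries left out). Depth limits the genes under 10 CPM, which held 311 of the calls outside chromosome 12.

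The samples share only a replicate number. The deviations of same-numbered libraries, over 7062 genes, correlated at -0.016 for mitotic S38A and S38D, 0.551 for mitotic WT and S38A, 0.003 for mitotic WT and S38D and -0.402 for asynchronous S38A and S38D, and between -0.402 and 0.787 over all pairs of groups. With the replicate block, 1755 genes were called outside chromosome 12 and 155 on it, with a median of -0.53 there, 686 in asynchronous cells, 5 for the difference between states, 1694 for S38A and 503 for S38D against WT, and Rpl12 was at 0.22. With the numbers of asynchronous S38A crossed in the block, a choice made after seeing the data, 779 genes were called in asynchronous cells.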

Other observations

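Some genes below the level used for naming had no read in the mitotic libraries of 1 of the 2 mutants. They were picked after their values were seen. Such genes passed the filter only through the libraries in which they were read, so their one-sided calls follow from how they were picked. Some of them had a few reads in asynchronous cells of the same line. Of the genes called in mitosis outside chromosome 12, 8 had no read in either mitotic S38A library and 1 had none in either mitotic S38D library. Tenm2, a teneurin adhesion protein, had 20 and 20 reads in mitotic S38D and none in mitotic S38A or WT. Summed over a group and set against a floor of 3 reads, it was at least 14.4-fold higher in S38D than in S38A. In asynchronous cells Tenm2 had 22 and 25 reads in S38D and again none in S38A.

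Acp5, tartrate-resistant acid phosphatase, had 19 and 20 reads in mitotic S38D, 6 and 3 in WT and none in S38A, which makes it at least 14-fold higher in S38D than in S38A by the same floor. In asynchronous cells it had 56 and 35 reads in S38D and none in S38A. Hoxb13, a homeobox gene, had 9 and 11 reads in mitotic S38D, 2 and 2 in WT and none in S38A. This made it at least 7.18-fold higher in S38D than in S38A. In asynchronous cells it had 26 and 29 reads in S38D and none in S38A. In the other direction Pipox, a peroxisomal oxidase, had 8 and 4 reads in mitotic S38A, 1 and 3 in WT and none in S38D. It was thus at least 3.71-fold lower in S38D than in S38A. In asynchronous cells Pipox had 19 and 23 reads in S38A and none in S38D.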
